A study of Mus musculus with 12 samples.

Results

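The genes described here are 10 markers of astrocytes, Apoe, S100b, Sparcl1, Aldoc, Clu, Gja1, Glul, Slc1a2, Slc1a3 and Aqp4, out of 27670 gene symbols on the array. They were chosen by name through the gene name, an older alias or the accession of each probe. The array carries 20 probes for them, and all 10 genes were well above background (a flag set by the image software) with at least 1 probe on at least 1 array. Of the 20 probes, 13 were well above background on all 12 arrays, 3 on some arrays and 4 on none.

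Expression was measured in mouse neural progenitor cells of strain 129/Ola, in 10 cultures that each overexpressed 1 transcription factor, named here by slide: Pax6 and Hmga2 (slide 1), Esx1, Etv6, Gatad2b and Nfxl1 (slide 2), or Crebzf, Pdx1, Sox11 and Zfp451 (slide 3). Both control cultures, EGFP and mock, lay on slide 1. Each factor was delivered as an open reading frame in the retroviral vector pMXs-IRESNeo, at a titre giving expression in about 95% of cells. The drug G418, which kills cells lacking the vector's resistance gene, was added 24 h after infection and the cells were collected at 72 h. The sources used here do not say whether the mock culture met a virus or the drug, or when it was collected. The title of the series sets interfering against non-interfering factors, and the labels do not say which factor is which kind. Each culture gave 1 array, so nothing below has a replicate or a p-value, and all 10 comparisons share the EGFP and mock arrays.

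Astrocytes are the glial cells that surround synapses and blood vessels. They take up glutamate from synapses and turn it into glutamine, pass ions and metabolites to each other through gap junctions, move water at the vessel wall and supply neurons with lipoprotein particles. Neural progenitors already share part of this programme, for example the glutamate transporter Slc1a3, and they acquire more of it when signals such as LIF and BMP act through STAT3 and SMAD factors. In the microarray data of a whole culture, more cells of a type and more RNA per cell cannot be told apart.

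Levels are the log2 signal of a gene's brightest probe relative to the 75th percentile of its array, so a level of 0 is that percentile. Levels of different genes come from different probes and are not compared with each other. A call on a factor array needed a level at least 2-fold above both controls, or at least 2-fold below both. Over the 16074 genes that every array showed well above background, EGFP and mock differed by a median of 0.07, and by up to 0.35 in 95 of 100 genes. That 95th percentile was 0.53 among the 5358 dimmest genes, 0.21 among the middle ones and 0.16 among the brightest, and 42 genes differed at least 2-fold. Both controls lay on the same slide, so these figures hold no spread between slides.

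Several arrays stood apart across the whole genome. On the Pax6 array, the Esx1 array and the 4 arrays of slide 3, between 9.59% and 10.7% of the 20968 genes tested were called higher than both controls, against 0.3% to 1.04% on the Hmga2, Gatad2b, Etv6 and Nfxl1 arrays. The first 6 are called the 6 arrays below, only to save repeating their names. Slides 1 and 2 each held arrays of both kinds. Slide 3 held no control, so slide and factor cannot be told apart for those 4 arrays. The overexpressed genes did not check the labels: of 26 probes for them, 0 exceeded all other arrays by 2-fold on their own factor's array, and 3 had their highest level there. Whether those probes lie inside the cloned reading frames was not established, and each array is named below as it is labelled.

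The labelled cell type was checked first. Of 13 markers of neural progenitors, 10 to 12 were well above background on each array. In the controls Vim, an intermediate filament of progenitors and glia, stood at 6.46 (EGFP) and 6.38 (mock), Nes, the progenitor filament nestin, at 3.34 and 3.52, and the factor Sox2 at 0.50 and 0.47. Sox3 was not well above background on any array. Of mature astrocyte markers, Gfap, the filament by which astrocytes are usually stained, was well above background on the EGFP array alone (-5.38), and the connexin Gjb6 and the potassium channel Kcnj10 on none. Of the 25 other astrocyte markers as a list, 14 to 19 were well above background on each array and 12 on every array, among them Aldh1l1, a folate enzyme, at -0.34 on EGFP and -0.32 on mock, and Cst3, the secreted protease inhibitor cystatin C, at 4.91 and 4.86.

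The promoters of 4 genes called higher on at least 1 of the 6 arrays, Apoe, S100b, Aldoc and Slc1a3, and of Gja1, called on none, are shown to set them side by side. RefSeq windows (GRCm38.p6) matched 7 of the 10 genes with 10 start sites, and each is given as the 250 bases before the start site, 5′ to 3′ on the gene's strand. Where a gene had several starts, the outermost is shown. Capitals mark matches on either strand to 4 motifs: TTCNNNGAA, bound by STAT factors, TGANTCA, bound by AP-1, TTGGC, the core bound by NFI factors, and GGGCGG, the GC box.
Apoe, chr7:19699189-19699438, minus strand: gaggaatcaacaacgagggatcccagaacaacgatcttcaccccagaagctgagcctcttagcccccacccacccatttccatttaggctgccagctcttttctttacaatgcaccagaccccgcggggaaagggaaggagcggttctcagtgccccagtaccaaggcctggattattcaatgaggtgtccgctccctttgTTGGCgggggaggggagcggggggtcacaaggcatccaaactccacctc
S100b, chr10:76253586-76253835, plus strand: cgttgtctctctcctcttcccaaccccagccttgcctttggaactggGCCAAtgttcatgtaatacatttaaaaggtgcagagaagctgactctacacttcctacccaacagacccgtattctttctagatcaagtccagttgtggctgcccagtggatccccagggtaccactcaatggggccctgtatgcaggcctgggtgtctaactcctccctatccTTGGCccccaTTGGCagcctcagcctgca
Aldoc, chr11:78322823-78323072, plus strand: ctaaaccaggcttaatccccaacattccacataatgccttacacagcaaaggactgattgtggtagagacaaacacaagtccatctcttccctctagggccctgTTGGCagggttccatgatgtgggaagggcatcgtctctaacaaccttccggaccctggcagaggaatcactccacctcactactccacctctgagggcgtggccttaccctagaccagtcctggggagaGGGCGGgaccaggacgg
Slc1a3, chr15:8710808-8711057, minus strand: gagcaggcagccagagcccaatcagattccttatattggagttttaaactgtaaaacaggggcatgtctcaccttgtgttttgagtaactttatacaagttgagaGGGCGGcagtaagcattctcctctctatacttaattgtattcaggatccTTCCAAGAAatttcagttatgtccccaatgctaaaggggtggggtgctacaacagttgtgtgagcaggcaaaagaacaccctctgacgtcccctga
Gja1, chr10:56377050-56377299, plus strand: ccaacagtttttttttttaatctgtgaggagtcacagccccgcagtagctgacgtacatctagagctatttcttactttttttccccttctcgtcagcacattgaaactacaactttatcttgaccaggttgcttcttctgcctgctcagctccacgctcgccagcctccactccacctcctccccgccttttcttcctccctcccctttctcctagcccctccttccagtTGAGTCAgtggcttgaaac
The 4 genes called higher share none of the 4 motifs. Apoe, S100b and Aldoc hold the NFI core, S100b 3 times, and Slc1a3 does not. Slc1a3 alone of the 5 windows holds a STAT match, TTCCAAGAA, starting 96 bases before the start site, and Gja1 alone an AP-1 match, TGAGTCA, 19 bases before it. A further start of Aldoc, not shown, holds 2 STAT matches. The windows of Aldoc and Slc1a3 each hold 1 GC box. Of genes not called on the 6 arrays and not shown, Glul holds the NFI core 2 times and 1 GC box, and Slc1a2 holds the NFI core 1 time. Of 32851 such windows in the table, 7.02% hold the STAT motif, 6.75% the AP-1 motif, 41.5% the NFI core and 32.7% the GC box. A match describes the letters of a window and says nothing of binding.

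Across the 10 genes, the counts of calls followed the array. On the Pax6 array 6 genes were called higher (Apoe, S100b, Sparcl1, Aldoc, Clu and Slc1a3), where 10.7% of all genes tested were called higher and 6.39% lower. Of the 10, Aqp4 had no value there, because the spot of its brightest probe was marked as an outlier. On the Esx1 array 3 were called higher (Apoe, S100b and Sparcl1), against 10.3% of all genes higher and 7.42% lower.
On each array of slide 3 the same 4 genes, Apoe, S100b, Sparcl1 and Aldoc, were called higher. Of all genes, 9.82% were higher and 6.28% lower on the Crebzf array, 9.85% and 6.63% on the Pdx1 array, 9.74% and 6.93% on the Sox11 array, and 9.59% and 6.3% on the Zfp451 array.
On the Hmga2 array 1 gene, Aqp4, was called higher, against 0.434% of all genes higher and 0.572% lower. On the Etv6 array 1 gene, Clu, was called higher, against 1.04% higher and 0.835% lower. None of the 10 was called on the Gatad2b array (0.644% of all genes higher and 1.0% lower) or on the Nfxl1 array (0.3% higher and 1.17% lower). No gene of the 10 was called lower on any array. The calls on slides 2 and 3 rest on controls of slide 1. Centring levels within slides, which removes what the 4 arrays of slide 3 share, left 0 calls on that slide and 0 on Etv6. Quantile normalization in place of the 75th percentile gave 6 calls on Esx1, and the call on Hmga2 was lost under normexp background correction.

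The median difference of the 10 genes from the control mean was 1.16 on the Pax6 array (9 genes with a value), 0.90 on Esx1, 0.86 on Crebzf, 0.78 on Pdx1, 0.88 on Sox11 and 0.77 on Zfp451. The same median over all genes tested was -0.08, -0.20, -0.08, -0.20, -0.20 and -0.09 on those arrays, in that order. On the other 4 arrays the median of the 10 lay between -0.12 (Nfxl1) and 0.08 (Etv6). Over the 16074 genes measured everywhere the median difference was -0.12 or -0.13 on Esx1 and each array of slide 3. Relative to that shift Apoe lay 3.39 above the controls on Esx1, where its difference as measured was 3.26.

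**Figure D1:**
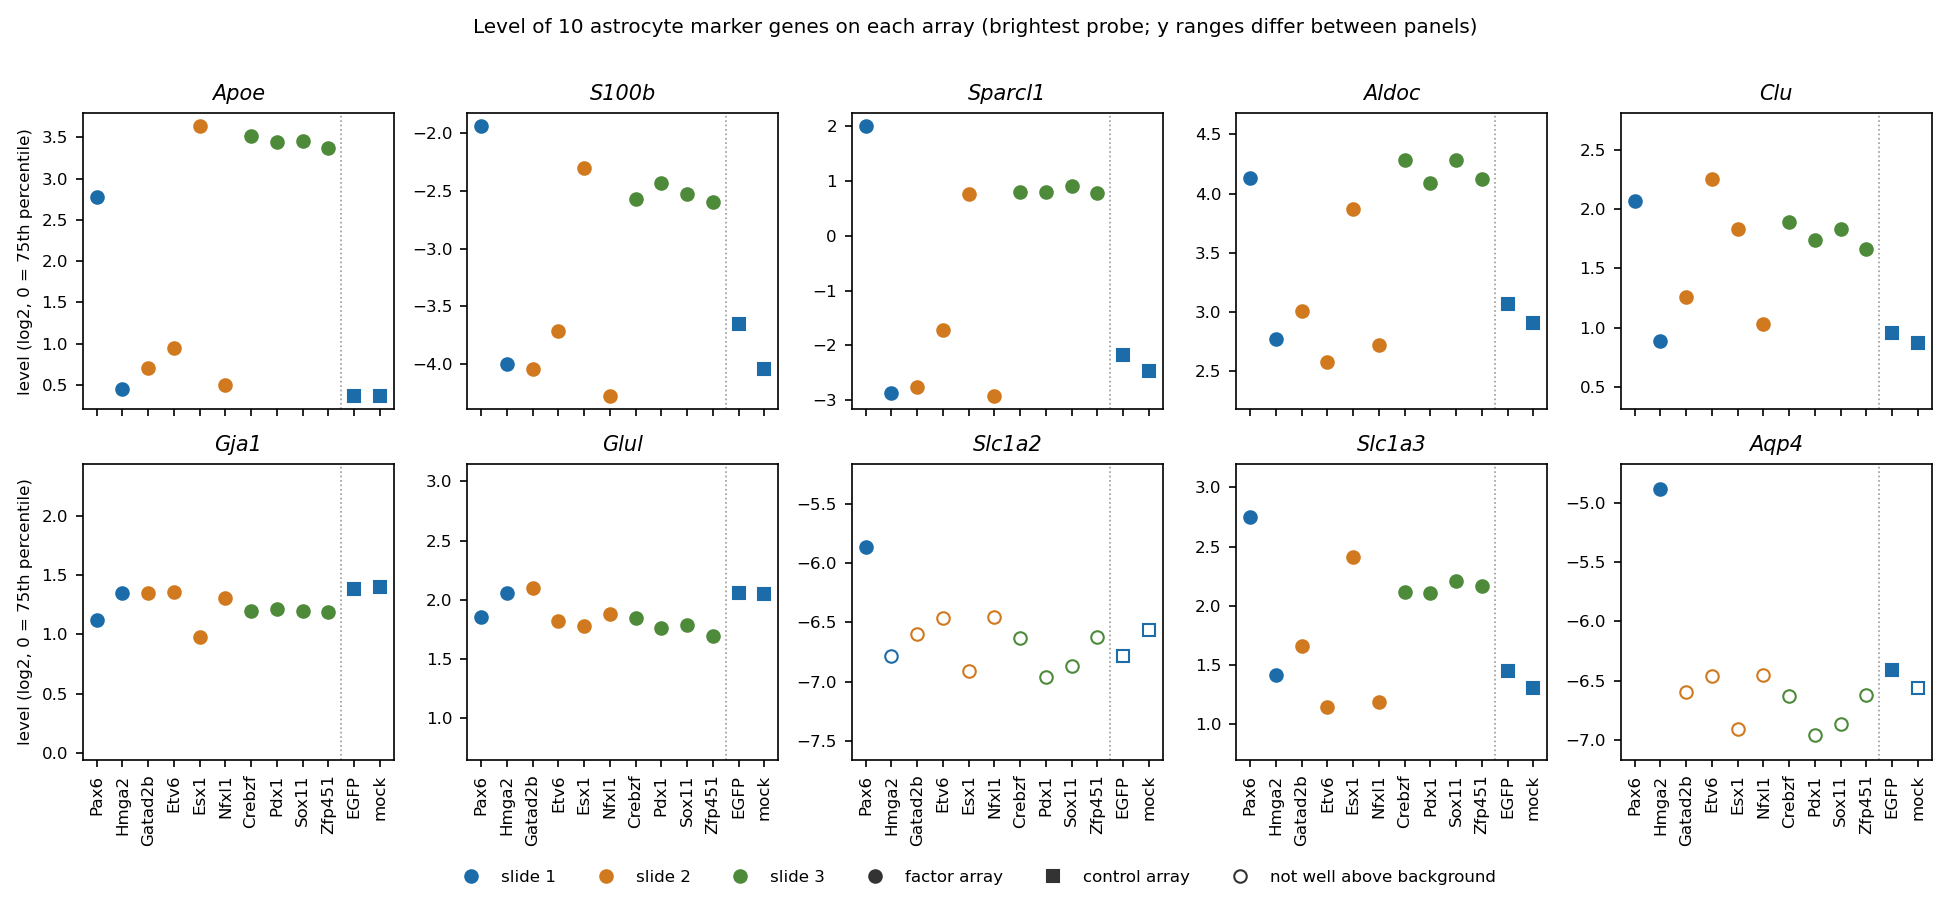
Level of each of the 10 genes on each array, as log2 of the brightest probe relative to the array's 75th percentile, with factor arrays as circles on the left and the EGFP and mock arrays as squares on the right of the dotted line. Colour gives the slide, and open symbols lie at the lowest level counted as well above background on that array. Apoe, S100b, Sparcl1 and Aldoc are higher on Pax6, Esx1 and the 4 arrays of slide 3 than on the other 6, while Gja1 and Glul stay within 0.42 and 0.40 over all 12. Pax6, Esx1 and slide 3 are the arrays where 9.59% to 10.7% of all genes were called higher, and how many genes split the arrays this way was not counted.

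Apoe encodes apolipoprotein E, the main carrier protein of the lipoprotein particles that astrocytes release. Its level was 2.78 on the Pax6 array, 0.45 on Hmga2, 0.71 on Gatad2b, 0.95 on Etv6, 3.63 on Esx1, 0.50 on Nfxl1, 3.51 on Crebzf, 3.44 on Pdx1, 3.46 on Sox11 and 3.37 on Zfp451, against 0.37 on EGFP and 0.37 on mock. The 6 high arrays lay at 2.78 and above and the other 4 factor arrays at 0.95 and below, with both controls lowest. In folds over the control mean this was 9.58 on Esx1, 8.83 on Crebzf, 8.53 on Sox11, 8.38 on Pdx1, 8.01 on Zfp451 and 5.30 on Pax6.
Neighbours in the order Esx1, Crebzf, Sox11, Pdx1, Zfp451 differed by less than the 0.21 that separated EGFP and mock at the 95th percentile for genes of this brightness. The Pax6 array lay 0.59 below the lowest of those 5, and Etv6, at 1.49-fold, was not called. The probe was spotted 10 times on each array, and the 8 or 9 spots kept had an SD between 0.0103 and 0.0457 in log2, which measures the array surface and not the culture. Its position in the files is chr7:17378757-17378816 (mm7, minus strand); whether that is an exon was not established here.

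Clu encodes clusterin, also called apolipoprotein J, another secreted lipoprotein component of astrocytes. Its level was 2.07 on Pax6, 0.89 on Hmga2, 1.26 on Gatad2b, 2.25 on Etv6, 1.83 on Esx1, 1.03 on Nfxl1, 1.89 on Crebzf, 1.74 on Pdx1, 1.83 on Sox11 and 1.66 on Zfp451, against 0.95 on EGFP and 0.87 on mock. Unlike Apoe it was highest on the Etv6 array, 2.53-fold above the control mean, followed by Pax6 at 2.23-fold. Short of the 2-fold rule were Crebzf at 1.98-fold, Esx1 and Sox11 at 1.89-fold, Pdx1 at 1.78-fold and Zfp451 at 1.69-fold. On slide 2, the Esx1 array lay 0.42 below Etv6 and 0.79 above Nfxl1.

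Sparcl1 encodes hevin, a matrix protein that astrocytes secrete and that promotes the formation of synapses. It had the widest range of the 10 genes, 4.92. Its level was 2.0 on Pax6, -2.86 on Hmga2, -2.75 on Gatad2b, -1.72 on Etv6, 0.76 on Esx1, -2.92 on Nfxl1, 0.80 on Crebzf, 0.80 on Pdx1, 0.92 on Sox11 and 0.78 on Zfp451, against -2.18 on EGFP and -2.47 on mock. The Pax6 array stood alone at the top, 20.0-fold above the control mean and at least 1.08 in log2 above each of Esx1 and the slide 3 arrays, which were 8.49-fold to 9.47-fold above it.
Etv6 lay between, 1.52-fold above the control mean and not called, and Hmga2, Gatad2b and Nfxl1 lay below both controls by less than 2-fold. A further probe, chr5:103268554-103268613 in mm7, beside the first at chr5:103268433-103268492, gave 1.33 on Pax6, 0.24 on Esx1 and 0.12 to 0.32 on slide 3, against -2.81 on EGFP and -3.29 on mock.

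S100b encodes a calcium-binding protein that mature astrocytes contain and release. Its level was -1.94 on Pax6, -4.00 on Hmga2, -4.05 on Gatad2b, -3.72 on Etv6, -2.30 on Esx1, -4.28 on Nfxl1, -2.57 on Crebzf, -2.43 on Pdx1, -2.53 on Sox11 and -2.60 on Zfp451, against -3.66 on EGFP and -4.05 on mock. The lowest of the Pax6, Esx1 and slide 3 arrays, Zfp451 at -2.60, lay above EGFP (-3.66), the highest of the others. On those arrays 9.59% to 10.7% of all genes were called higher. How many of all genes split the arrays as S100b or Apoe do was not counted. Against the control mean S100b was 3.77-fold higher on Pax6, 2.94 on Esx1, 2.69 on Pdx1, 2.51 on Sox11, 2.45 on Crebzf and 2.4 on Zfp451. EGFP and mock differed by 0.39, within the 0.53 of genes this dim, and the distance of Pax6 above Esx1, 0.36, is of that size too.

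Aldoc encodes aldolase C, the brain form of the glycolytic aldolase. Its level was 4.13 on Pax6, 2.77 on Hmga2, 3.01 on Gatad2b, 2.58 on Etv6, 3.87 on Esx1, 2.72 on Nfxl1, 4.28 on Crebzf, 4.09 on Pdx1, 4.28 on Sox11 and 4.12 on Zfp451, against 3.07 on EGFP and 2.91 on mock. The same 6 arrays were highest, at 2.45-fold on Crebzf and Sox11, 2.21 on Pax6, 2.19 on Zfp451, 2.15 on Pdx1 and, short of the rule, 1.85 on Esx1. Etv6 was lowest, 1.33-fold below the control mean. A dimmer probe ran from -3.19 (Etv6) to -1.58 (Pax6), against -2.65 on EGFP and -2.74 on mock, and put the same 6 arrays on top.

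Slc1a3 encodes GLAST, a glutamate transporter of astrocytes and radial glia. Its level was 2.75 on Pax6, 1.42 on Hmga2, 1.66 on Gatad2b, 1.15 on Etv6, 2.41 on Esx1, 1.19 on Nfxl1, 2.12 on Crebzf, 2.11 on Pdx1, 2.21 on Sox11 and 2.17 on Zfp451, against 1.45 on EGFP and 1.31 on mock. Pax6 was highest at 2.58-fold over the control mean and the only array called. Esx1, at 2.04-fold over the mean but 0.96 in log2 over EGFP, missed the rule, and the slide 3 arrays lay at 1.66-fold to 1.78-fold.
Of 2 further probes, one stood at 0.05 on Pax6 and -0.67 on Esx1, against -1.26 on EGFP and -1.42 on mock. On slide 3 that probe was nearer the controls, at -1.09 (Crebzf), -0.93 (Pdx1), -0.91 (Sox11) and -1.03 (Zfp451), so the size of the slide 3 difference depends on the probe. The dimmest probe stood at -2.63 on Pax6, -3.63 on Esx1, -3.82 on Crebzf, -3.91 on Pdx1, -3.45 on Sox11 and -3.51 on Zfp451, against -4.20 on EGFP and -4.47 on mock. Its differences from the control mean on Sox11 (0.89) and Zfp451 (0.83) were close to those of the brightest probe, and on Pax6 (1.71) it gave the widest of the 3.

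Slc1a2 encodes GLT-1, the main glutamate transporter of mature astrocytes, and Aqp4 the water channel of their vessel-facing endfeet. Neither had a level that could be followed across the arrays. Of 4 Slc1a2 probes, 1 was well above background on 1 array, Pax6 (17.0 units of signal, level -5.86), and 3 on none. That probe carries the name of a cDNA clone in the files and was assigned to Slc1a2 through its accession. The call rule was not met, at a difference of at least 0.70 from mock.
Of 3 Aqp4 probes, the brightest was well above background on Hmga2 (31.1 units, level -4.88) and EGFP (11.1 units, level -6.41) and not on mock or on the other arrays with a value. Hmga2 was thereby called at least 3.05-fold higher, on that probe alone: both other probes were not well above background on the Hmga2 array, and 1 of them was on EGFP (-6.29).

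Gja1 and Glul were the steadiest. Gja1 encodes connexin 43, the main gap junction protein of astrocytes. It stood at 1.12 on Pax6, 1.35 on Hmga2, 1.35 on Gatad2b, 1.36 on Etv6, 0.98 on Esx1, 1.31 on Nfxl1, 1.20 on Crebzf, 1.21 on Pdx1, 1.20 on Sox11 and 1.19 on Zfp451, against 1.38 on EGFP and 1.4 on mock. Every factor array lay below both controls, by 0.03 to 0.42, and none reached the rule. Of these, only Esx1 (-0.42) and Pax6 (-0.27) differed from the control mean by more than the 0.21 between EGFP and mock for genes of this brightness. That 0.21 holds no spread between slides, and Esx1 lay on another slide than the controls. Relative to the median difference of the genes measured everywhere, Gja1 lay at -0.29 on Esx1 and -0.21 on Pax6. The 10 spots of this probe had an SD of 0.0184 to 0.0711 on each array.
Glul encodes glutamine synthetase, which makes glutamine from the glutamate that astrocytes take up. Its level was 1.86 on Pax6, 2.06 on Hmga2, 2.10 on Gatad2b, 1.82 on Etv6, 1.78 on Esx1, 1.88 on Nfxl1, 1.85 on Crebzf, 1.76 on Pdx1, 1.79 on Sox11 and 1.70 on Zfp451, against 2.06 on EGFP and 2.05 on mock. The farthest from the controls was Zfp451, 1.27-fold below their mean. Hmga2 and Gatad2b lay at the level of the controls. A much dimmer probe ran from -5.80 (Etv6) to -5.15 (Esx1), against -5.49 on EGFP and -5.35 on mock, with Esx1 above both controls there and below both on the brighter probe.

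**Figure D2:**
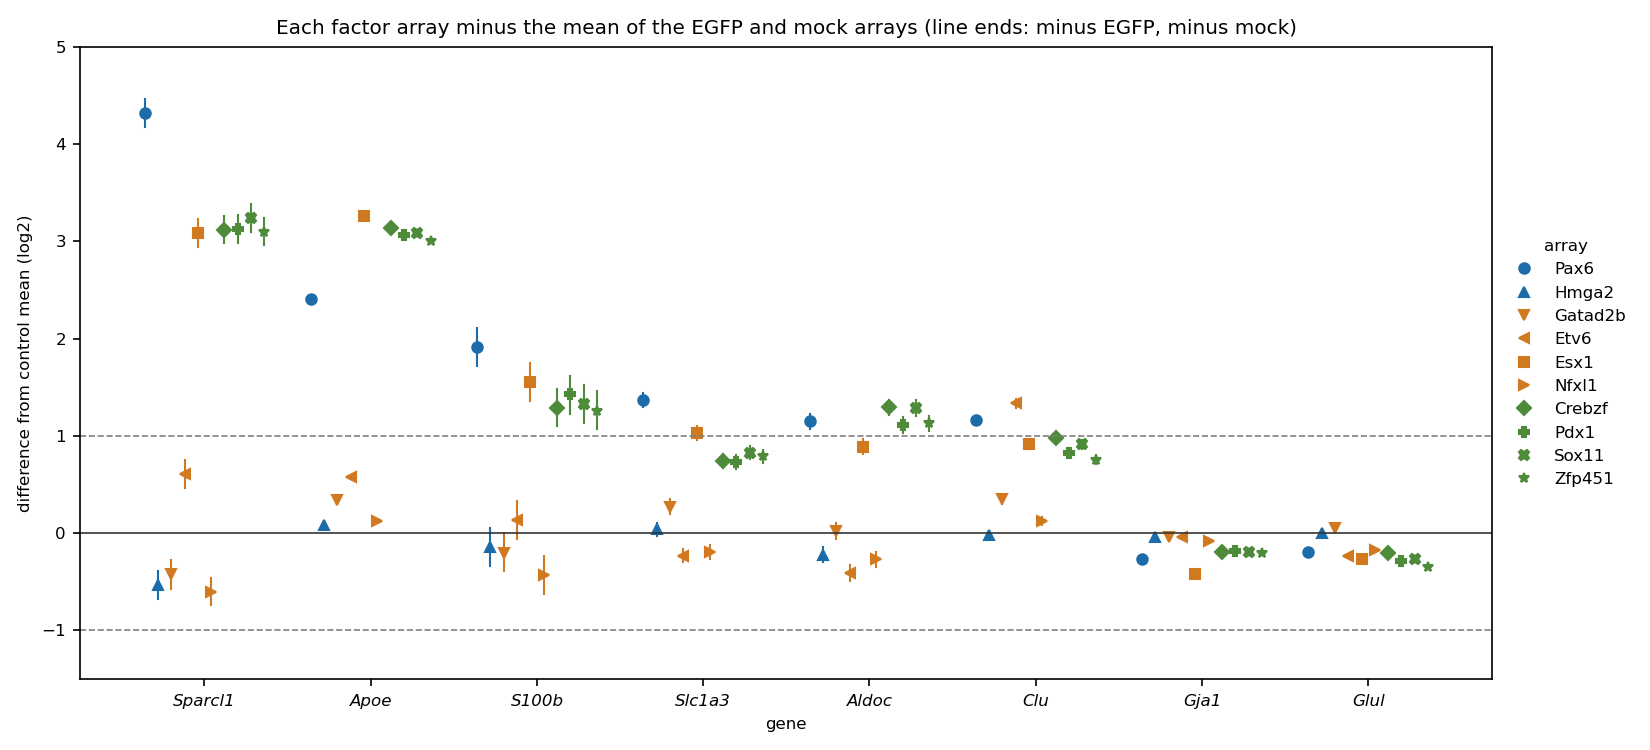
Difference of each factor array from the mean of EGFP and mock in log2 for the 8 genes measured on all arrays, where the ends of each vertical line are the differences from EGFP and from mock, and dashed lines mark 2-fold. Colour gives the slide and symbol the factor. Pax6 stands highest for Sparcl1 (4.32), S100b (1.91) and Slc1a3 (1.37), Esx1 for Apoe (3.26), and Etv6 for Clu (1.34), while Gja1 and Glul lie between -0.42 and 0.05.

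Within slide 1, where the controls lay, the Pax6 differences above stand without any change of slide. On slide 2 the Esx1 array can be set against its 3 neighbours Gatad2b, Etv6 and Nfxl1. Its level minus their mean was 3.23 for Sparcl1, 2.91 for Apoe, 1.72 for S100b, 1.11 for Aldoc, 1.07 for Slc1a3 and 0.32 for Clu, and -0.15 for Glul and -0.36 for Gja1. Apoe was at least 2.68 above each neighbour, and Sparcl1 at least 2.48. On slide 3 the 4 arrays spanned 0.01 (Gja1) to 0.23 (Clu) for the genes well above background, so they were close to each other in every one of the 8.

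**Figure D3:**
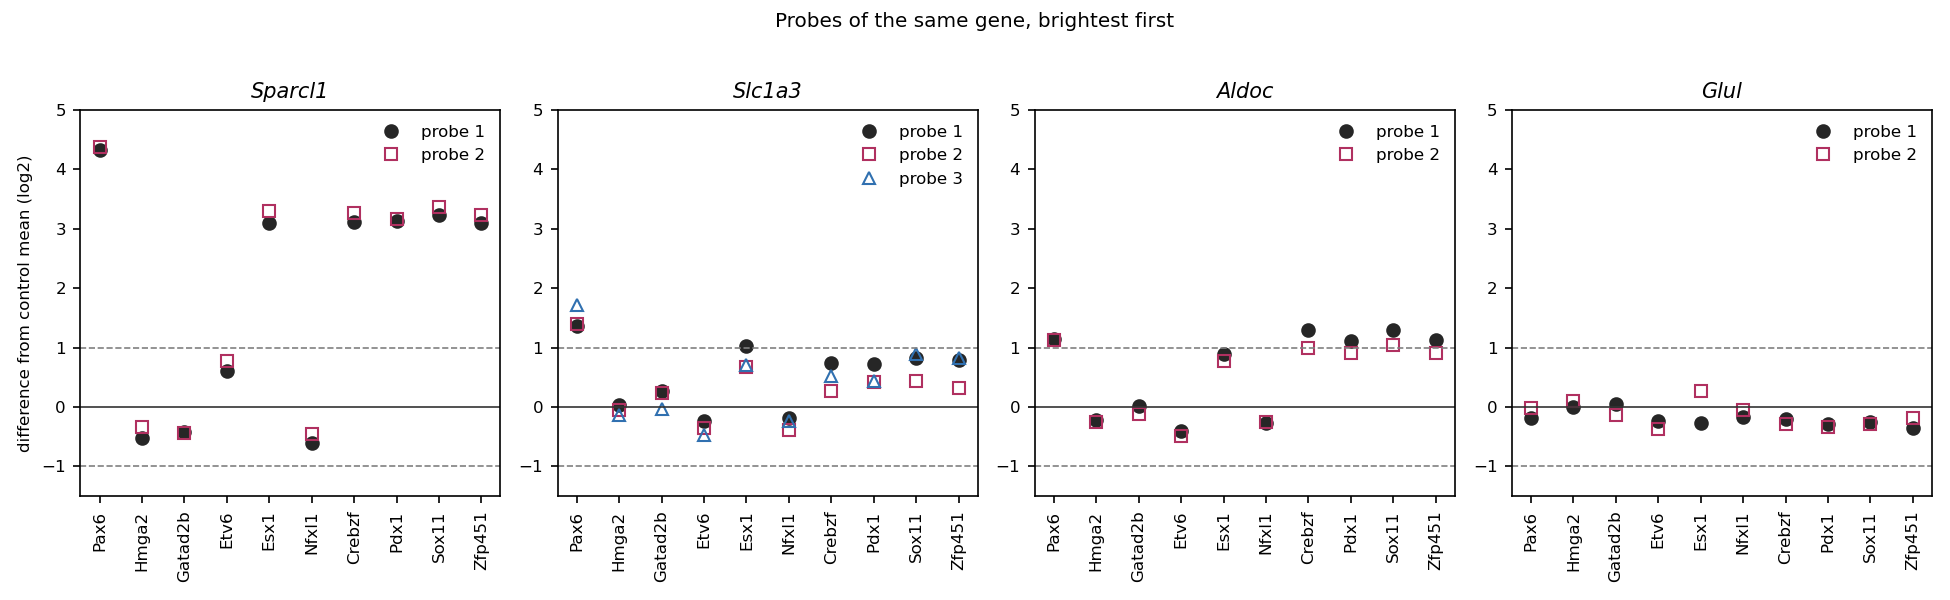
Difference from the control mean in log2 for each probe of the 4 genes that have more than 1 probe well above background, over the 10 factor arrays, with dashed lines at 2-fold. Both Sparcl1 probes and both Aldoc probes follow each other, probe 2 of Slc1a3 gives smaller differences than probe 1 on the slide 3 arrays, and both Glul probes stay within 2-fold of the controls.

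The genes most like Apoe and S100b in level across the 12 arrays were found among 13514 genes by the root mean square difference of their mean-centred levels. For Apoe these were Ntng1, a membrane-bound relative of the netrins (0.10 in log2), Rasgef1a, an exchange factor for Ras-type GTPases (0.12), and Ndn, the imprinted gene for necdin (0.12). Ntng1 stood at -0.39 on Esx1 and -1.23 on Pax6, against -3.73 on EGFP and -3.58 on mock. For S100b they were Ppp1r3d, a glycogen-targeting subunit of protein phosphatase 1 (0.08), Rarb, a retinoic acid receptor (0.10), and Fcgrt, the neonatal Fc receptor (0.12). Rarb stood at -0.43 on Pax6 and -0.57 on Esx1, against -2.23 on EGFP and -2.31 on mock.

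Other astrocyte markers were divided. Of 25 listed, 23 were tested, and 7 were called higher and 1 lower on Pax6, 4 and 1 on Esx1, 8 and 2 on Crebzf, 6 and 2 on Pdx1, 7 and 2 on Sox11 and 7 and 1 on Zfp451. On Etv6 1 was higher, and on Hmga2, Gatad2b and Nfxl1 none was called. The counts of this and the later lists stand beside those of all genes tested. These were 9.59% to 10.7% higher and 6.28% to 7.42% lower on the 6 arrays. On the other 4 factor arrays 0.3% to 1.04% were higher and 0.572% to 1.17% lower. The median difference of the list was never above 0.05, on any array. Ppp1r3c, a glycogen-targeting subunit of protein phosphatase 1, was 9.20-fold higher on Pax6 and 9.53-fold to 10.7-fold on Esx1 and slide 3. Atp1b2, a sodium pump subunit of glia, was 4.42-fold to 5.35-fold higher on the same 6 arrays, and Ttyh1, a glial membrane protein, 2.60-fold higher on Etv6 and 2.69-fold to 5.31-fold on those 6. Acsbg1, an acyl-CoA synthetase of the brain, was on the other side of the controls, 4.83-fold lower on Pax6 and 2.81-fold to 3.21-fold lower on Esx1 and slide 3.

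A list of 17 factors and receptors tied to astrocyte formation does not separate those that promote it from those that restrain it. Of these, 1 was called higher on Pax6, 5 on Esx1, 3 on Crebzf, 4 on Pdx1, 3 on Sox11 and 4 on Zfp451, and none on the other 4 arrays. None was lower. Sox9, a factor of gliogenesis, was 6.47-fold higher on Esx1 and 3.60-fold to 3.93-fold on slide 3, and 1.99-fold on Pax6, just short of the rule. Lhx2, a forebrain progenitor factor, was 3.11-fold higher on Esx1 and 2.61-fold to 2.82-fold on slide 3. Bmpr1b, a BMP receptor not well above background on either control, was at least 4.55-fold higher on Esx1 and at least 2.62-fold to 3.13-fold on slide 3. Stat3, which carries LIF signals to the genome, was 2.11-fold higher on Pax6 and 2.29-fold on Esx1, and 1.57-fold to 1.71-fold, not called, on slide 3. Nfia, a factor that starts gliogenesis, was not called on any array, with differences between -0.37 (Etv6) and 0.59 (Esx1).

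Of 21 genes tested from a list of 25 that reactive astrocytes express, 11 were called higher and 3 lower on Pax6, and 10 higher and 3 lower on Esx1 and on each array of slide 3. The list's median difference was 1.30 on Pax6 and 0.83 to 0.96 on the other 5. On Etv6 1 was lower, and on Hmga2, Gatad2b and Nfxl1 none was called. Psmb8, an immunoproteasome subunit, was 12.9-fold higher on Pax6 and 17.9-fold to 21.3-fold on Esx1 and slide 3. Serping1, the inhibitor of complement C1, was 9.56-fold higher on Pax6 and 12.1-fold to 15.1-fold on those 5. Iigp1, an interferon-inducible GTPase, was 18.9-fold higher on Pax6 and 7.83-fold to 9.26-fold on those 5, and was the gene lower on Etv6, by 2.73-fold. Osmr, the oncostatin M receptor, was 7.46-fold higher on Pax6 and 8.68-fold to 9.96-fold on those 5. Psmb8 and Iigp1 are interferon-inducible in many cell types.

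The pathways of the single markers were then examined. Of 19 lipoprotein genes tested beside Apoe and Clu, 4 were called higher and 2 lower on Pax6, 5 and 0 on Esx1, 4 and 1 on Crebzf, 4 and 0 on Pdx1, 4 and 1 on Sox11 and on Zfp451, and 1 higher on Etv6. Abca1, which loads lipid onto apolipoproteins, was 13.2-fold higher on Pax6, 4.74-fold to 5.86-fold on Esx1 and slide 3, and 3.73-fold on Etv6. Abcg1, which exports cholesterol, was 5.28-fold higher on Pax6 and 2.51-fold to 2.79-fold on those 5, and Pltp, which transfers phospholipid, 4.89-fold to 5.88-fold on all 6. The highest array of Abca1 and Abcg1 was Pax6, as for Sparcl1, whereas Apoe was lower on Pax6 than on the other 5.

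In the glutamate and glutamine list none of 12 tested genes was called higher on any array, and the same 2 were called lower on each of the 6 arrays. They were Got1, the cytosolic aspartate aminotransferase, 2.20-fold to 3.14-fold lower, and Slc1a5, a carrier of neutral amino acids, 2.32-fold to 3.08-fold lower. The list's median difference there ran from -0.61 (Pax6) to -0.32 (Zfp451). Slc1a3 lay above the controls on these arrays, where the median of the list lay below them.
Of 12 genes tested from a list of other S100 genes and the receptor Ager, 4 or 5 were called higher and 1 or 2 lower on the same 6 arrays, and none on the other 4. S100a1 was 3.8-fold to 4.86-fold higher there and S100a13 3.06-fold to 3.37-fold, both calcium-binding relatives of S100b, S100a16 was at least 7.16-fold higher, and S100a3 3.21-fold to 4.42-fold lower.
Of 6 tested genes of the SPARC family, Sparc among them, 2 were higher on those 6 arrays, the proteoglycan Spock2 by 2.94-fold to 3.32-fold and the secreted protein Fstl1 by 2.08-fold to 2.49-fold.

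Among 11 genes tested beside Gja1, connexins, pannexins and the junction gene Tjp1, 1 was called higher on each of the 6 arrays, Gjb5, an epithelial connexin, at least 6.16-fold to 8.03-fold. With 9.59% to 10.7% of all genes called higher on those arrays, 1 of 11 is a share near the background. Panx1, a channel of the pannexin family, was 2.10-fold to 3.22-fold lower on Pax6, Crebzf, Sox11 and Zfp451. Of 15 aquaporins and dystrophin-complex genes tested beside Aqp4, 1 was called higher on each of the 6 arrays and on Etv6, and 1 lower on Pax6, Esx1 and Crebzf, 2 on Sox11 and Zfp451 and 3 on Pdx1. On the 6 arrays 1 of 15 higher is below the 9.59% to 10.7% of all genes, and 1 of 15 lower is near the 6.28% to 7.42%. Dmd, the gene for dystrophin, was the one higher on the 6 arrays, by 3.69-fold to 6.66-fold, and Aqp1 was 2.14-fold to 4.66-fold lower on Esx1 and slide 3. Aqp8, another water channel, was the one 2.94-fold higher on Etv6, and was lower on Pdx1 (2.61-fold), Sox11 (2.52) and Zfp451 (2.75). Aqp2, the water channel of the kidney's collecting duct, was lower on Pax6 (2.26-fold) and Pdx1 (2.31). Of 6 aldolases and glycogen enzymes tested, none was higher, and the glycogen branching enzyme Gbe1 was lower on Pax6 (2.43-fold), Esx1 (2.32), Crebzf (2.11) and Zfp451 (2.10).

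**Figure D4:**
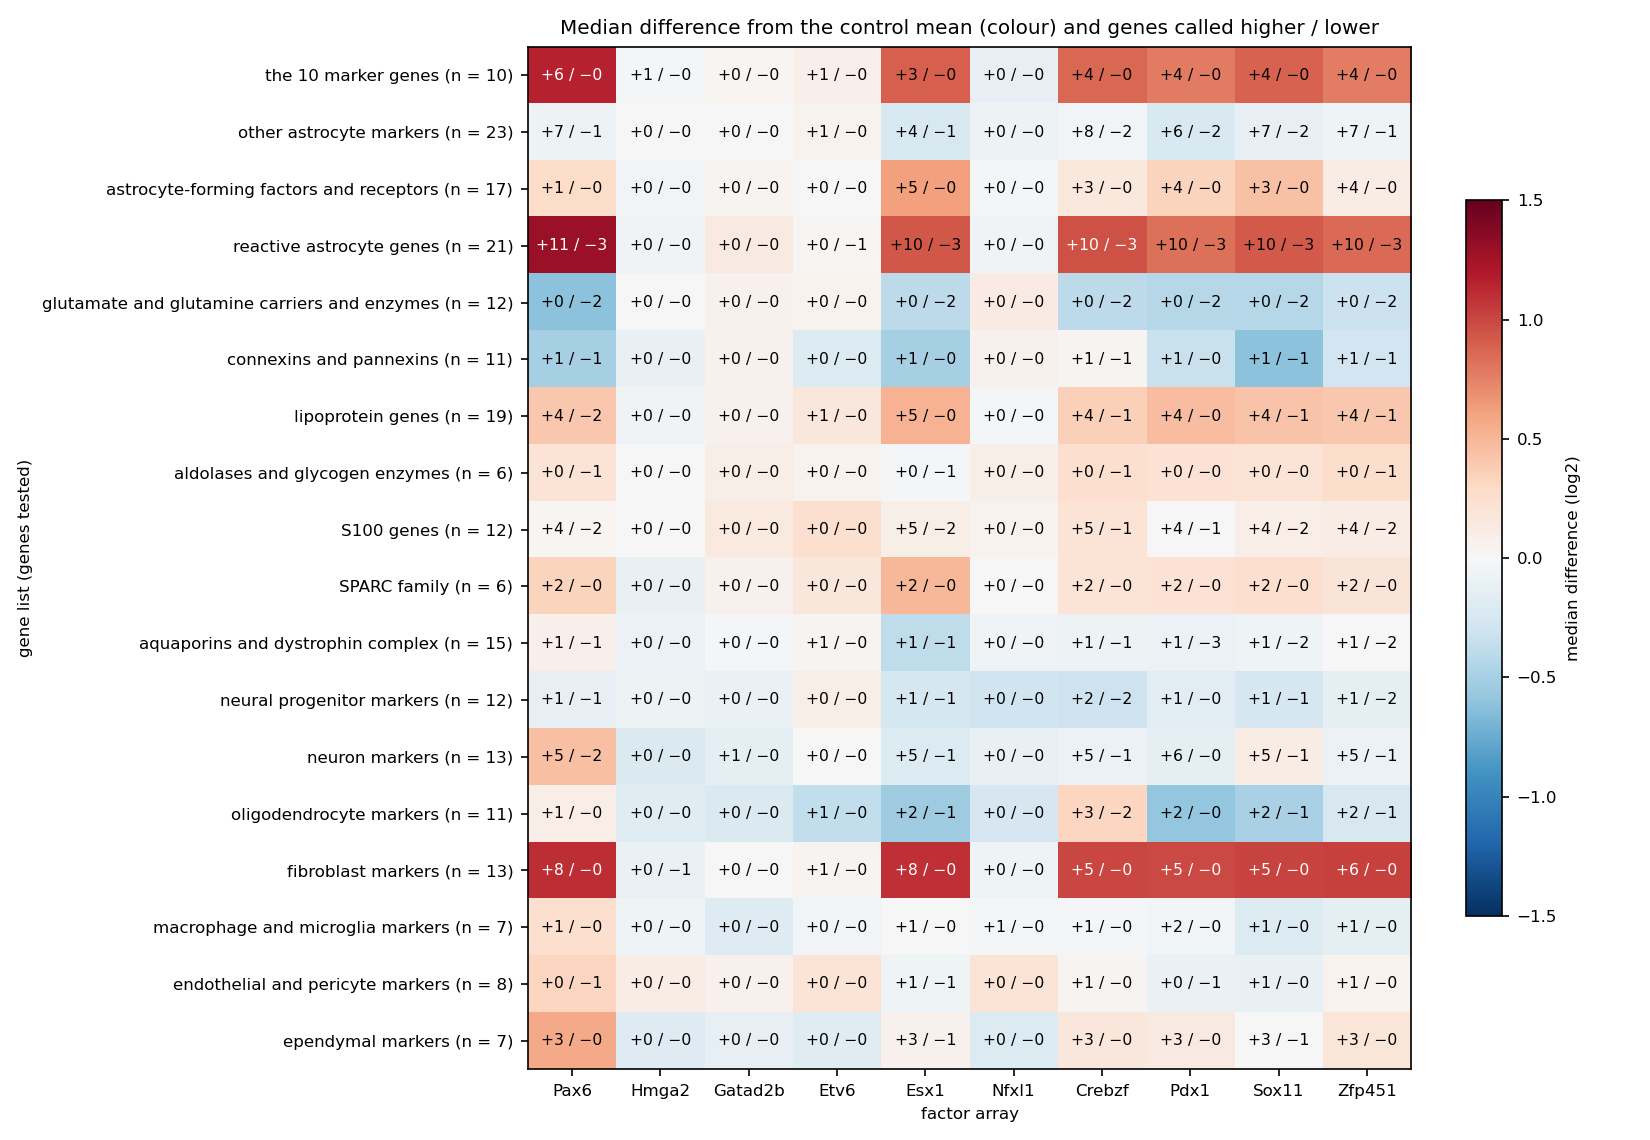
Median difference from the control mean in log2 (colour) and genes called higher (plus) and lower (minus) for the 10 marker genes and each gene list (rows, with the number of genes tested) on each factor array (columns). The 10 marker genes, the reactive astrocyte genes and the fibroblast markers have medians of 0.77 to 1.30 on Pax6, Esx1 and slide 3, and the other astrocyte markers have medians of -0.24 to 0.05.

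Markers of some other cells were higher on the same arrays as well. Summed over the list, relative to the 75th percentile, fibroblast markers reached 264 on Pax6, 280 on Esx1 and 256 to 272 on slide 3, against 120 to 130 on Hmga2, Gatad2b, Etv6 and Nfxl1, 129 on EGFP and 121 on mock. Such a sum adds levels on the linear scale, so the brightest probes of a list carry most of it. All 13 were well above background on each control and 12 or 13 on each factor array, and 5 to 8 were called higher on the 6 arrays. Postn, the matrix protein periostin, was 78.8-fold to 144-fold higher there, Thy1 12.8-fold to 42.1-fold and Lox, which cross-links collagen, 10.2-fold to 16.2-fold. The 10 marker genes summed to 42.8 to 46.7 on those arrays and 18.7 to 22.3 on the other 4, against 21.4 on EGFP and 20.1 on mock. The other astrocyte markers summed to 185 to 198 on the 6 arrays and 210 to 237 on the other 4, against 201 on EGFP and 200 on mock. Mfge8 (6.82 on EGFP), Prdx6 (5.72) and Cst3 (4.91) carry most of that sum. On the 6 arrays Prdx6 differed from the control mean by -1.14 to -0.85, Mfge8 by -0.09 to 0.01 and Cst3 by 0.52 to 0.65. Of the 23 tested, 4 to 8 were called higher there and 1 or 2 lower.
Neuron markers summed to 2.91 to 3.32 on the 6 arrays and 1.43 to 1.59 on the other 4, against 1.51 on EGFP and 1.53 on mock, with 9 to 11 of 14 well above background on the factor arrays, 13 on EGFP and 10 on mock, and Dcx on 1 array of 12. Stmn2 was at least 2.61 in log2 above the control mean on Pax6, and at least 4.12 to 4.24 on Esx1 and slide 3. Snap25, a synaptic release protein, was 5.44-fold to 9.32-fold higher on the 6, and Syt1 was 2.39 to 3.07 higher in log2. Of 13 neuron markers tested, 5 or 6 were called higher and 0 to 2 lower on those arrays, and the list's median difference was 0.45 on Pax6, -0.21 on Esx1 and -0.15 to 0.11 on slide 3. Nefl, a neurofilament, was lower on Pax6 (2.47-fold), Esx1 (5.69), Crebzf (4.07), Sox11 (5.26) and Zfp451 (6.76). Oligodendrocyte markers summed to 3.79 to 4.78 on the 6 arrays and 3.04 to 3.63 on the other 4, against 3.87 on EGFP and 3.92 on mock, with 8 or 9 of 13 well above background on the factor arrays, 11 on EGFP and 8 on mock, and Olig1 on none. Of 11 tested, 1 to 3 were called higher and 0 to 2 lower on the 6 arrays, and 1 higher on Etv6. Pdgfra was higher by 1.71 to 2.36 in log2 on the 6 and 1.17 on Etv6, and Cspg4 by 1.27 to 1.44 on Esx1 and slide 3. Mag was lower on Esx1 (-1.46), Crebzf (-1.10) and Sox11 (-1.10). The list's median difference was 0.10 on Pax6, -0.53 on Esx1, 0.32 on Crebzf, -0.58 on Pdx1, -0.49 on Sox11 and -0.24 on Zfp451. Ependymal markers summed to 1.44 to 1.61 on the 6 and 0.516 to 0.599 on the other 4, against 0.701 on EGFP and 0.572 on mock, with 3 to 7 of 8 well above background on the factor arrays, 6 on EGFP and 5 on mock. On each of the 6 arrays 3 of the 7 tested were called higher, Spag6, Ccdc39 and Cfap126, which serve cilia, Cfap126 by 2.58-fold to 2.98-fold, while Hydin, also of cilia, was lower on Esx1 (2.11-fold) and Sox11 (2.51). The ependymal median was 0.57 on Pax6, 0.07 on Esx1 and 0.01 to 0.18 on slide 3. Macrophage markers summed to 1.03 to 1.30 over all factor arrays, against 1.09 on EGFP and 1.14 on mock. Of 13, 4 to 6 were well above background on each array, and Tyrobp, Trem2, Itgam, C1qa, C1qc and P2ry12 on none. Of 7 tested, 1 or 2 were called higher and none lower on each of the 6 arrays. The median difference of this list was -0.20 to 0.25 there. Aif1, a calcium-binding protein of microglia, was called at least 2.71-fold to 3.29-fold higher on the 6 arrays, and the chemokine receptor Cx3cr1 at least 11.1-fold higher on Nfxl1 and at least 5.01-fold on Pdx1. Endothelial and pericyte markers summed to 0.612 to 0.829 on the 6 and 1.06 to 1.13 on the other 4, against 1.04 on EGFP and 1.15 on mock, with 3 to 6 of 11 well above background and Pecam1 and Cdh5 on none. That sum is nearly all the VEGF receptor Flt1, at -0.11 on EGFP and 0.03 on mock. On the 6 arrays Flt1 differed from the control mean by -1.08 (Pax6) to -0.51 (Pdx1). Of 8 tested, 0 or 1 were called higher and 0 or 1 lower on each of the 6 arrays. The list's median difference was 0.32 on Pax6, -0.07 on Esx1 and -0.11 to 0.05 on slide 3. Rgs5, a pericyte marker, was at least 2.98-fold higher on Esx1, 2.49 on Crebzf, 3.11 on Sox11 and 2.23 on Zfp451, Flt1 2.11-fold lower on Pax6, and the tight junction protein Cldn5 at least 2.1-fold lower on Esx1 and Pdx1. The part of any of these cells in the levels of the astrocyte markers was not tested.
Progenitor markers summed to 84.5 to 101 on the 6 arrays and 104 to 129 on the other 4, against 105 on EGFP and 102 on mock, and Nes was called lower on Pax6 (2.85-fold), Esx1 (2.59), Crebzf (2.14), Sox11 (2.14) and Zfp451 (2.19). Vim carries most of that sum and was not called on any array, with differences of -0.23 (Pdx1) to 0.37 (Hmga2). The list's median difference was -0.31 to -0.12 on the 6 arrays, where that of all genes tested was -0.20 to -0.08. Pax6, a factor of forebrain progenitors, was 2.52-fold higher on the array labelled Pax6 and 2.88-fold to 3.41-fold on the other 5 of the 6.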

How the data were processed

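RNA from 12 cultures, 1 for each factor, EGFP and mock, was labelled with Cy3 from 0.25 µg and hybridised to 12 one-colour Agilent mouse arrays, 4 on each of 3 slides. Per the file headers, the deposited values are background-subtracted intensity values on a linear scale from Agilent Feature Extraction 10.7.3.1, with no further normalisation. The authors' deposited value table equalled them in 45018 of 45018 rows on each array. The deposited flags for outliers, saturation and signal well above background come from that software, which also gives an error for each signal. The files place probes on mm7.

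From these, outlier spots (61 to 104 per array) were left out and spots of 1 probe averaged, giving 41174 probes. No spot was saturated. The log2 intensity was set relative to the array's 75th percentile (823.5 to 1026 units), and signals below the lowest one well above background (-6.96 to -6.45) were raised to it. Of all probes, 62.5% to 69.1% were well above background. Probes took current RefSeq symbols by accession (22951), symbol (6659) or synonym (3109), or kept the file's name (8455). The probe with the highest mean stood for a gene, and the 20968 genes that passed background on 1 or more arrays were tested. "At least" before a fold means that its dimmer side was not well above background. With 1 array for each group there was no test, and the number of arrays limits the precision.

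The 10 genes and the gene lists were chosen with earlier results of these data known. All 10 are described, with their further probes by range or count. Called genes named from a list are among the 4 with the widest smaller difference from both controls, though not all 4 are named for every list. Nfia, Hes1, Hes5, Smad1, Gfap and the other marker genes named for being bright, present, absent or uncalled were chosen after their values were seen. Python 3.11.15 (numpy 2.4.6, pandas 2.3.3) and, for normexp, R 4.3.3 with limma 3.58.1 were used. Alternatives were quantile normalization, normexp (offset 50), no floor, the mean over probes, genes well above background on all 12 arrays, centring within slides, each control alone, and 1.5-fold and 3-fold rules.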

Additional observations from a re-analysis of the deposited data

How the results depend on the processing

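Medians near 0 changed sign, on Hmga2 (-0.03) to 0.02 with mock alone, on Gatad2b (0.03) to -0.04 with the mean over probes, and on Etv6 (0.08) to -0.04 with EGFP alone. No other median did under the alternatives run, no gene of the 10 was called lower under any of them, and either control alone left every count and median within the limits used. Under the 3-fold rule the genes called higher were 3 on Pax6, 2 on each of Esx1, Crebzf, Pdx1, Sox11 and Zfp451, and 0 on Etv6 and Hmga2. The 1.5-fold rule gave 7 on Pax6 and 6 on each of Esx1, Crebzf, Pdx1, Sox11 and Zfp451. With quantile normalization 6 were called on Esx1. The 1 call on Hmga2, Aqp4, was lost (0) under normexp, under the mean over probes and when every array had to show the gene well above background. Centring within slides gave 0 on Etv6, Crebzf, Pdx1, Sox11 and Zfp451 and medians of 0.36 on Crebzf, 0.28 on Pdx1, 0.37 on Sox11 and 0.35 on Zfp451: it removes by construction what the 4 arrays of slide 3 share, and the mean of slide 1 holds the Pax6 array. Quantile normalization gave medians of 1.45 on Pax6, 0.32 on Etv6, 1.11 on Esx1, 1.01 on Crebzf, 0.93 on Pdx1, 1.03 on Sox11 and 0.93 on Zfp451. Without a floor the median on Pax6 was 1.37. That last filter, which leaves out Slc1a2 and Aqp4, gave medians of 1.14 on Crebzf, 0.97 on Pdx1, 1.11 on Sox11 and 0.96 on Zfp451. The cause of the other changes was not tested. No paired analysis was possible because each group holds 1 array. Slc1a2 and Aqp4 lie at the background, where these arrays limit what can be seen.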
